A study of Mus musculus with 10 samples.

Results

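A group of 9 genes was followed here through the pregnant mouse uterus: the secreted ligand *Ihh*, its receptors and effectors *Ptch1*, *Smo*, *Gli1*, *Gli2*, *Gli3* and *Hhip*, and the stromal transcription factors *Nr2f2* and *Hand2*. They were taken by symbol as the Indian hedgehog to stroma axis, not by their values, and make up 9 of the 45706 gene identifiers in the deposited count table. All 9 averaged 1 count or more per library and were among the 25146 genes tested. RNA from a part of each uterus was sequenced at gestation day (GD) 3.5, with 1 mouse per library, from 5 control females of genotype *Arid1a f/f* and 5 conditional knockout females of genotype *Ltf iCre/+ Arid1a f/f*, called cKO here. Both groups were adult females of a mixed C57BL/6, 129S6/SvEvTac, 129P2/OlaHsd and 129S1/SvImJ background, mated to wildtype males, and both carried floxed alleles of *Arid1a*, which encodes a subunit of the SWI/SNF chromatin remodeling complex. They differed in the Cre recombinase expressed from 1 lactoferrin (*Ltf*) locus, which is active in the endometrial epithelium. According to the authors, Cre activity in neutrophils and other myeloid cells has also been reported. Any part of it in the values here was not tested. The controls carried no Cre, so the effect of Cre itself and that of the deletion cannot be told apart in this design. The axis genes other than *Ihh* act mainly in cells that the Cre does not target.

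In the uterus, hedgehog signaling carries a message from the epithelium to the stroma. Progesterone acts through its receptor to raise *Ihh* in the epithelium before implantation, and the secreted ligand binds Patched receptors on the stromal cells beneath. Bound Patched no longer holds back Smoothened, which then acts through the primary cilium to turn the GLI transcription factors from repressors into activators. *Ptch1*, *Gli1* and *Hhip* are transcribed in response, so their transcripts are widely read as the output of the pathway. Stromal COUP-TFII (*Nr2f2*) and HAND2 belong to the progesterone-dependent program that quiets estrogen signaling in the epithelium and prepares the stroma for decidualization.

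Of the 9 genes, *Ptch1* fell in cKO uteri, to 0.548 of its control level, in a call close to the threshold, and no other member passed the test. In bulk tissue, fewer cells of a type and less RNA per cell cannot be told apart. *Ihh* itself had nearly the same group means (log2 fold change 0.02). Its level instead separated the cKO uteri among themselves, with replicates 1 and 5 below and replicates 2, 3 and 4 above every control. Of the 9 members 7 had a negative log2 fold change, against 11894 of all 25146 genes tested. The median over the members was -0.36 against 0.03 over all genes tested. By the quasi-likelihood test of edgeR, with p-values adjusted by the Benjamini-Hochberg method and a threshold of 0.05, 1 of the 9 members was called, against 9.70% of all genes (4.51% lower and 5.19% higher). One call in 9 is near that background, so the count is no result about the axis.

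The libraries held 65351817 to 72702411 counts in controls and 59296537 to 67990486 in cKO mice. Expression is given in CPM, the counts of a gene set against a library size that TMM normalization in edgeR makes comparable between uteri, and every member except *Hhip* had at least 953 counts in each library. *Arid1a*, the targeted gene, was 192 to 251 CPM in controls and 165 to 208 CPM in cKO mice (log2 fold change -0.20 ± 0.09 (SE), adjusted p = 0.201), in RNA of all uterine layers, of which the Cre targets the epithelium. *Ltf*, the locus that carries the Cre, was 2.22 to 11.7 CPM in controls and 23.6 to 2831 CPM in cKO mice. cKO replicates 1 and 5 stood apart from the other 3 in many values below, and the summed neutrophil markers were high in replicate 5 alone. For called genes of the lists below, the number of the 10 fits without 1 uterus that kept the call is given.

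The sequences upstream of 3 members are shown because they carry the start of the axis (*Ihh*), the transcript that fell (*Ptch1*) and a stromal end point (*Hand2*). Each is the stretch of 250 bases before the RefSeq transcription start in GRCm38.p6, written 5′ to 3′ on the gene's strand. In the first pair, capitals mark GC boxes (GGGCGG or its reverse complement).
*Ihh*, chr1:74951673-74951922, minus strand: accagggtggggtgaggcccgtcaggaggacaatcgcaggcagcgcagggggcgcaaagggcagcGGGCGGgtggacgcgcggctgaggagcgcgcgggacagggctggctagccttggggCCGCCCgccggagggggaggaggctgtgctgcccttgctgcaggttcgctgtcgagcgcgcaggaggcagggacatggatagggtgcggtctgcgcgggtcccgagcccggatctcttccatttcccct
*Ptch1*, chr13:63565736-63565985, minus strand: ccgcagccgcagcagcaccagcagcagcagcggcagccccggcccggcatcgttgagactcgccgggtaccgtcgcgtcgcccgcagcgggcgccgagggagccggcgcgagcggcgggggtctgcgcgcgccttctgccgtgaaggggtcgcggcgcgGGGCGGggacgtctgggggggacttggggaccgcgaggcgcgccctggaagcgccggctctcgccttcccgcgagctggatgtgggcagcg
In the third, capitals mark E-boxes (CANNTG), the class of site that HAND2, a basic helix-loop-helix factor, binds with its partners.
*Hand2*, chr8:57320733-57320982, plus strand: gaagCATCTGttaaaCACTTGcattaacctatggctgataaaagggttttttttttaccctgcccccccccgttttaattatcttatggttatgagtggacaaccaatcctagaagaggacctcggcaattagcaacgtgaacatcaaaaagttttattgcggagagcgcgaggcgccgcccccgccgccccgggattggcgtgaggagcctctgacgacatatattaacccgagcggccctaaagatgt
The *Ptch1* stretch lies inside the annotated gene, of which other transcripts start further upstream. Promoters were found for 8 of the 9 members. The *Ptch1* stretch was the richest in G and C of these (78.4%, with 41 CG dinucleotides), followed by *Hhip* (76.0%), *Gli3* (72.8%) and *Ihh* (72.0%), whereas *Nr2f2* (50.0%) and *Hand2* (49.2%) lay near the median of all 32851 promoters (52.4%). GC boxes were present in 6 of the 8 stretches and in 32.7% of all promoters of this length. E-boxes were present in 3 of the 8 and in 66.2% of all, with 2 copies before *Hand2*. The GLI motif GACCACCCA, searched on both strands, was in 0 of the 8 windows and in 0.225% of all promoters. These are letter matches in short windows and no measure of binding.

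*Ihh* (ENSMUSG00000006538, chr1:74945315-74951672 of GRCm38, minus strand) is a short gene of 3 exons that encodes the ligand. Its level was 39.8, 36.3, 33.6, 43.3 and 33.1 CPM in control replicates 1 to 5. In cKO replicates 1 to 5 it was 14.9, 52.4, 48.2, 58.5 and 15.0 CPM. Replicates 1 and 5 lay below every control at about 40.1% and 40.2% of the control mean, and replicates 2, 3 and 4 lay above every control at 141%, 129% and 157%. Group means were 37.2 ± 4.34 and 37.8 ± 21.2 CPM (SD, n = 5 each), so the SD was larger in cKO uteri while the means nearly coincided. On the log2 scale the fitted change was 0.02 ± 0.36 (SE), with a 95% interval of -0.77 to 0.81 and an adjusted p of 0.978. This interval still holds changes of over 1.5-fold in either direction. The difference in mean log2 CPM had the opposite sign, -0.21, with p = 0.571 in a two-sided exact permutation test. Without any single one of cKO replicates 2, 3 or 4, or of control replicates 3 or 5, the fitted value also turned negative (-0.19 to -0.02).

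**Figure D1:**
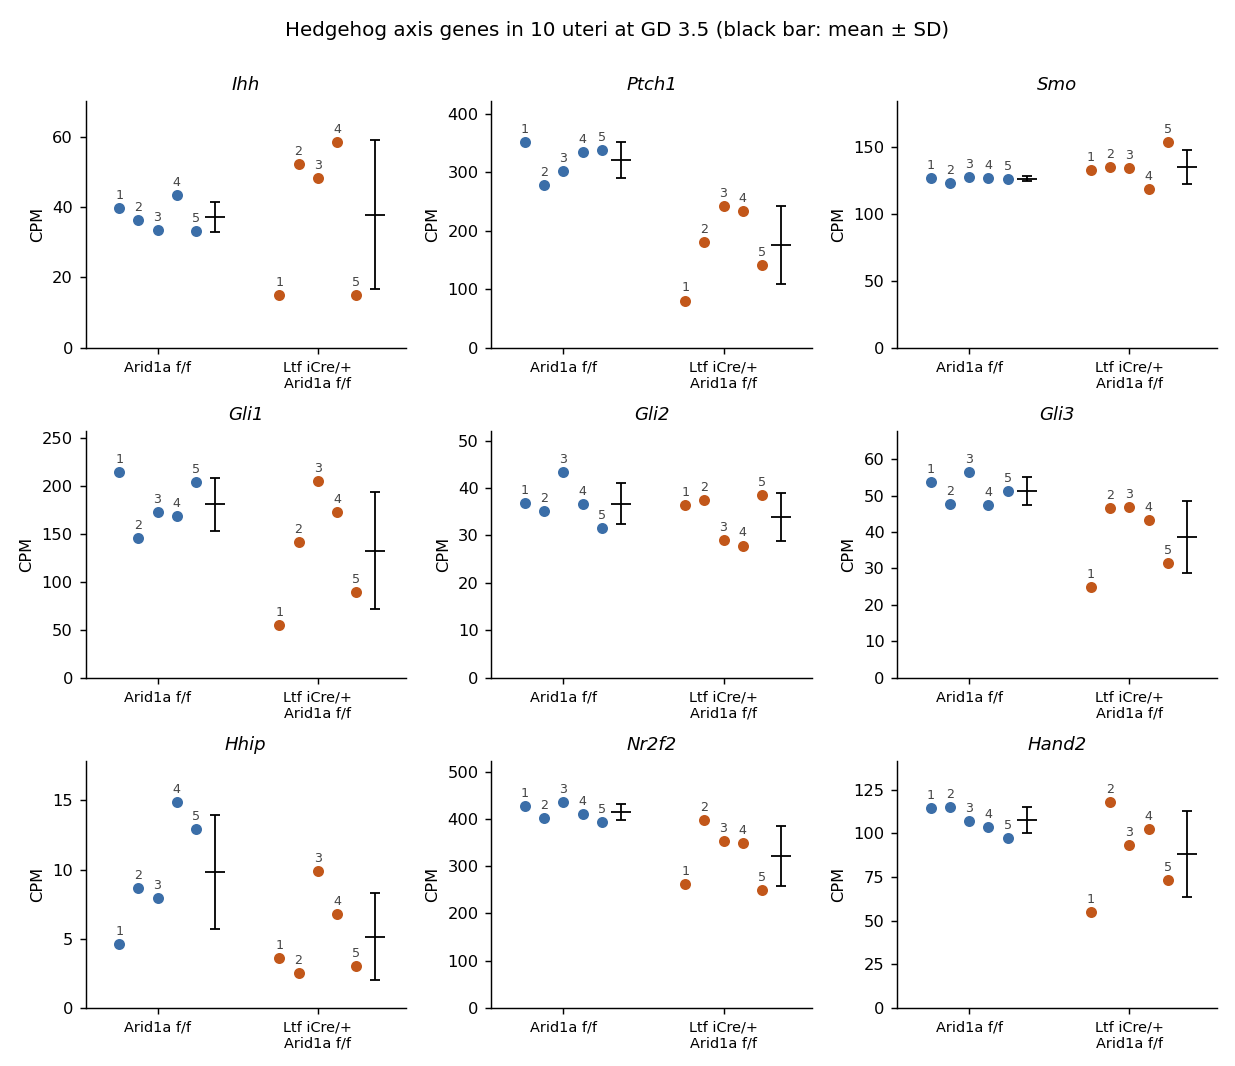
Level of each of the 9 axis genes in 10 uteri at GD 3.5, in CPM on axes that start at 0. Blue points are *Arid1a f/f* and orange points cKO mice, numbered by replicate, and black bars are the mean ± SD of 5 uteri. *Ptch1* and *Gli3* have every orange point below every blue point, and *Ihh* has 2 orange points below and 3 above all blue points.

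*Ptch1* (ENSMUSG00000021466, chr13:63508328-63573598, minus strand) encodes the receptor that hedgehog ligands bind, and is itself a target of the pathway. Its level was 351, 277, 301, 335 and 337 CPM in control replicates 1 to 5. In cKO replicates 1 to 5 it was 80.6, 180.1, 242, 233 and 141 CPM. The genotypes did not overlap, and the highest cKO value, in replicate 3, was still below the lowest control. Mean levels were 320.4 ± 30.3 and 176 ± 67.1 CPM (SD, n = 5 each). Fitted on the log2 scale the change was -0.87 ± 0.24 (SE), with a 95% interval of -1.40 to -0.33. *Ptch1* passed the edgeR test (adjusted p = 0.0462), and the exact permutation test gave p = 0.00794, the smallest that 5 uteri against 5 allow. DESeq2 gave a log2 fold change of -0.87 and an adjusted p of 0.00672. The edgeR call lay close to the threshold. It was lost without any 1 of the controls (adjusted p = 0.0779 to 0.0926), without cKO replicate 2 (0.0742) and without replicate 5 (0.0784), and was kept without replicate 1 (0.0273), replicate 3 (0.0313) or replicate 4 (0.0433). Over these 10 fits the log2 fold change was between -1.01 and -0.69.

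*Ptch1* was low also in the uteri where *Ihh* was high in CPM. In replicates 2, 3 and 4 of cKO mice, *Ptch1* was 56.2%, 75.6% and 72.8% of the control mean beside *Ihh* at 129% to 157%. In replicates 1 and 5 it was 25.2% and 44.1%. Set against the epithelial markers described below, *Ihh* in replicates 2, 3 and 4 lay within the control range. Counts of *Ptch1* per count of *Ihh* were 7.64 to 10.2 in controls and 5.39, 3.44, 5.03, 3.99 and 9.46 in cKO replicates 1 to 5, so that only replicate 5 fell within the control range. These ratios, and those of other pairs of members below, were chosen after the values were seen and carry no test.

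*Smo* (ENSMUSG00000001761, chr6:29735503-29761365, plus strand) encodes Smoothened, the transducer that Patched holds back. It was 127, 123, 128, 127 and 126 CPM in control replicates 1 to 5 and 133, 135, 134, 119 and 154 CPM in cKO replicates 1 to 5. It varied least of the members, with a coefficient of variation of 1.51% in controls and 9.23% in cKO uteri, and 4 of the 5 cKO uteri lay slightly above every control, with replicate 5 the highest. The log2 fold change was 0.10 ± 0.08 (SE), with a 95% interval of -0.07 to 0.26 and an adjusted p of 0.467. Counts of *Ptch1* per count of *Smo*, receptor per transducer, were 2.26 to 2.77 in controls and 0.606 to 1.97 in cKO uteri, without overlap.

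*Gli1* (ENSMUSG00000025407, chr10:127329882-127341974, minus strand) encodes the GLI factor that acts only as an activator and is transcribed when the pathway is on. It was 214, 146, 173, 168 and 204 CPM in control replicates 1 to 5 and 54.6, 141, 205, 173 and 89.9 CPM in cKO replicates 1 to 5. Replicates 1 and 5 lay far below the controls, at 30.2% and 49.6% of their mean, replicate 2 just below, and replicates 3 and 4 within the control range. The log2 fold change of -0.45 ± 0.29 (SE) did not pass the test (95% interval -1.09 to 0.19, adjusted p = 0.370). The balance of the pathway's target transcripts differed as well, since counts of *Ptch1* per count of *Gli1* were 1.64 to 1.99 in controls and 1.2 to 1.57 in cKO uteri, without overlap. *Arhgap9*, a gene on the opposite strand that shares exon sequence with *Gli1*, rose from 7.89 to 11.5 CPM in controls to 11.1 to 22.2 CPM (log2 fold change 0.83, adjusted p = 0.0258). Whether the reads were counted by strand is not stated in the sources used here, so reads in the shared bases cannot be assigned to one gene.

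*Gli2* and *Gli3* encode the factors that relay the signal and, without ligand, can be cut into repressors, which GLI3 mainly supplies. *Gli2* (ENSMUSG00000048402, chr1:118834132-119053619, minus strand) was 36.9, 35.1, 43.3, 36.6 and 31.5 CPM in control replicates 1 to 5 and 36.4, 37.4, 29.1, 27.9 and 38.6 CPM in cKO replicates 1 to 5. Its low uteri were replicates 3 and 4, not 1 and 5, and the log2 fold change was -0.12 ± 0.12 (SE, 95% interval -0.38 to 0.15, adjusted p = 0.60). *Gli3* (ENSMUSG00000021318, chr13:15463235-15730026, plus strand) was 53.6, 47.7, 56.4, 47.5 and 51.3 CPM in control replicates 1 to 5 and 25.0, 46.6, 46.9, 43.4 and 31.5 CPM in cKO replicates 1 to 5. Every cKO uterus was below every control, by little in replicates 2 and 3 and by the most in replicates 1 and 5. The log2 fold change of -0.41 ± 0.16 (SE, 95% interval -0.76 to -0.05) did not pass the edgeR test across all genes (adjusted p = 0.137), and the exact permutation test of this single gene gave p = 0.00794, not adjusted. *Ptch1* and *Gli3* were the 2 members of 9 with every cKO uterus below every control, a pattern that 5.16% of all genes tested showed. Counts of *Gli3* per count of *Gli2* were 1.30 to 1.63 in controls, 0.686 and 0.818 in cKO replicates 1 and 5, and 1.25, 1.61 and 1.56 in replicates 2, 3 and 4. *Gm6556*, which shares 188 exon bases with *Gli3* on the opposite strand, had at most 1.44 CPM in any library.

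*Hhip* (ENSMUSG00000064325, chr8:79965851-80058006, minus strand) encodes a membrane protein that binds and sequesters hedgehog ligands, another product of the active pathway. It was 4.59, 8.66, 7.94, 14.9 and 12.9 CPM in control replicates 1 to 5 and 3.61, 2.50, 9.88, 6.75 and 3.02 CPM in cKO replicates 1 to 5, from 148 to 1047 counts. Replicates 1, 2 and 5 were below every control and replicates 3 and 4 within their range, which was itself wide. *Gm27820*, which overlaps its exons on the opposite strand, had 0 counts. The *Hhip* log2 fold change of -0.93 ± 0.41 (SE, 95% interval -1.83 to -0.02) did not pass the test (adjusted p = 0.180). *Hhip* had the largest SE of the members, so a change as large as that of *Ptch1* could not be told from none for this gene.

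*Nr2f2* (ENSMUSG00000030551, chr7:70351944-70366735, minus strand) encodes COUP-TFII, a nuclear receptor of the stroma. It was 427, 402, 435, 410.3 and 394 CPM in control replicates 1 to 5 and 262, 398, 353, 349 and 249 CPM in cKO replicates 1 to 5. Replicate 2 reached the control range, replicates 3 and 4 lay a little below it, and replicates 1 and 5 were at 63.3% and 60.3% of the control mean. Its log2 fold change of -0.36 ± 0.13 (SE, 95% interval -0.64 to -0.08) did not pass the edgeR test (adjusted p = 0.101). DESeq2 put it just past the threshold (log2 fold change -0.36, adjusted p = 0.0495), a test by which 9.15% of genes were called lower, and edgeR did so without cKO replicate 2 (adjusted p = 0.0487) and with the epithelial scaling described below. *B130024G19Rik*, which shares exon bases with *Nr2f2* on the opposite strand, was 44.4 to 62.1 CPM in controls and 14.6 to 51.0 CPM in cKO uteri (adjusted p = 0.257).

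*Hand2* (ENSMUSG00000038193, chr8:57320983-57324633, plus strand) encodes a transcription factor that holds down stromal fibroblast growth factors in the receptive uterus. It was 115, 115, 107, 104 and 97.4 CPM in control replicates 1 to 5 and 54.6, 118, 93.4, 102 and 73.1 CPM in cKO replicates 1 to 5. Replicates 1 and 5 were again the lowest, replicate 3 lay just below the controls, replicate 4 within their range and replicate 2 above it. A log2 fold change of -0.29 ± 0.17 (SE, 95% interval -0.66 to 0.09) did not pass the test (adjusted p = 0.331). Its opposite-strand neighbor *Hand2os1*, which overlaps *Hand2* exons, was 37.1 to 70.8 CPM in controls and 25.2 to 81.8 CPM in cKO uteri (adjusted p = 0.724).

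The cKO uteri differed among themselves across most members. cKO replicates 1 and 5 were each below every control in 7 of the 9 members, which were all but *Smo* and *Gli2*. In each of those 7 genes except *Hhip*, replicates 1 and 5 were the 2 lowest of the cKO uteri. Replicates 2, 3 and 4 were below every control in 4, 5 and 5 members. The share of all genes below every control in a single uterus was not computed, so these counts are no result about the axis. Replicates 1 and 5 stood apart over all genes as well. The chi-square per gene between 2 cKO libraries was 164 to 308 in pairs with replicate 1 or 5. It was 36.1 to 93.7 among replicates 2, 3 and 4. The coefficient of variation of *Ihh* was 11.7% in controls and 56.0% in cKO uteri, and that of *Gli1* 15.3% and 45.8%. Replicates of a genotype have no order, and nothing in the labels separates replicates 1 and 5 from the others.

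**Figure D2:**
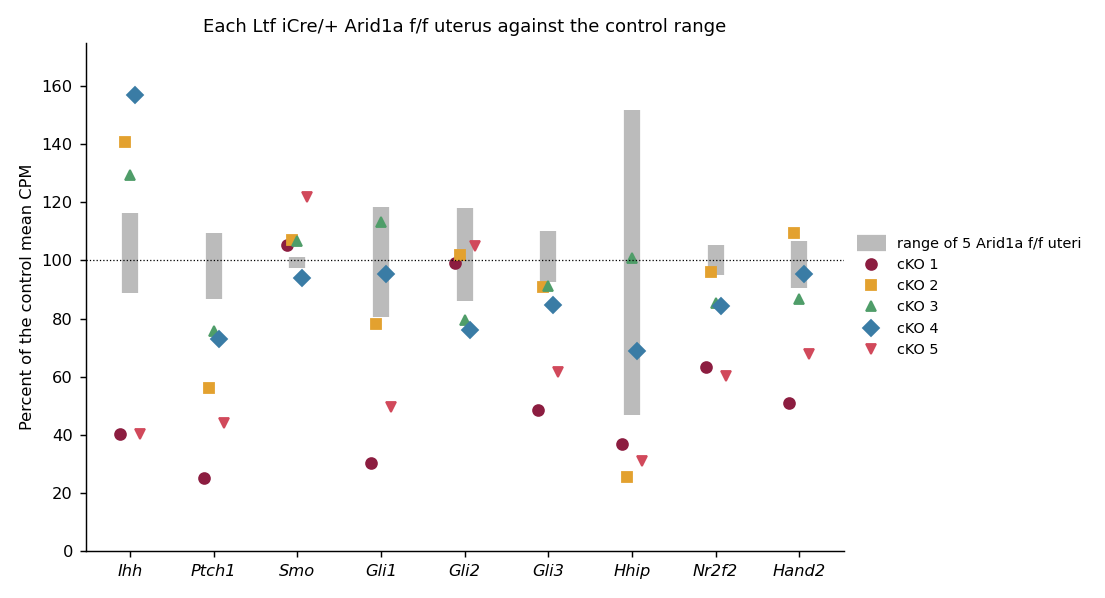
Each cKO uterus as a percent of the control mean CPM, for the 9 axis genes, with gray bars from the lowest to the highest of 5 *Arid1a f/f* uteri and 1 symbol per replicate. Replicates 1 and 5 (circles and inverted triangles) lie under the gray bar in 7 genes, all but *Smo* and *Gli2*, and *Ihh* in replicate 4 reaches 157%.

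Levels between genes were compared per length, as TPM, which divides each count by the length of the union of the gene's exons before scaling to the library. In controls *Nr2f2* (172 ± 11.4 TPM, SD, n = 5) and *Hand2* (164 ± 13.7 TPM) stood highest, followed by *Gli1* (129.6 ± 21.1 TPM), *Ptch1* (80.7 ± 8.29 TPM), *Smo* (80.2 ± 2.87 TPM) and *Ihh* (43.6 ± 5.35 TPM). *Gli3* (19.1 ± 1.83 TPM), *Gli2* (19.1 ± 2.63 TPM) and *Hhip* (3.83 ± 1.56 TPM) closed the order. Control ranges overlapped between *Nr2f2* and *Hand2*, *Hand2* and *Gli1*, *Ptch1* and *Smo*, and *Gli3* and *Gli2*. The order of these neighbors was not tested. In cKO uteri *Ptch1* averaged 42.4 ± 16.4 TPM, next to *Ihh* at 42.3 ± 23.6 TPM, and *Smo* averaged 82.0 ± 8.41 TPM. The union of *Ptch1* exons is long (14185 bases), which lowers its TPM if the long isoforms are rare.

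**Figure D3:**
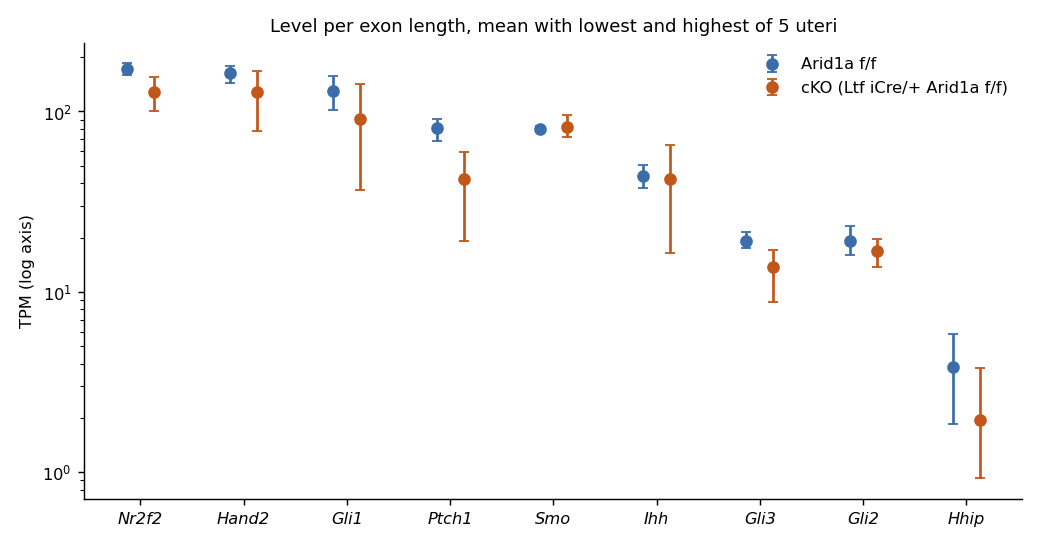
Level of the 9 axis genes in TPM (log axis), ordered by their control mean. Points are means and bars run from the lowest to the highest of 5 uteri, blue for *Arid1a f/f* and orange for cKO mice. *Ptch1* and *Smo* are level in controls (80.7 and 80.2 TPM) and apart in cKO uteri (42.4 and 82.0 TPM).

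The other genes of the pathway were taken from 4 lists of 39 genes, of which 38 were tested. Among them 6 fell and 2 rose, against backgrounds of 4.51% and 5.19%. A negative log2 fold change was found in 32 of the 38, against 11894 of all 25146 genes tested (median -0.23 against 0.03). Of the ligands and the genes that release them, *Dhh*, a second hedgehog ligand, was low at 1.89 to 3.54 CPM in controls and fell to 1.21 to 1.64 CPM (log2 fold change -0.78 ± 0.22 (SE), adjusted p = 0.0460). *Disp1*, which exports lipid-bound hedgehog from the producing cell, fell from 17.4 to 21.3 CPM in controls to 11.4 to 16.3 CPM (-0.48 ± 0.11, adjusted p = 0.0231). The secreted carriers that help release the ligand went opposite ways. *Scube2* fell (-0.72 ± 0.15, adjusted p = 0.0135) and *Scube1* rose, from 65.4 to 166 CPM in controls to 177 to 304 CPM (1.11 ± 0.24, adjusted p = 0.0167). *Scube2* kept its call without any 1 of the 10 uteri, *Disp1* and *Scube1* in 8 of the 10 such fits each (highest adjusted p = 0.0644 and 0.0529), and *Dhh* in 1 (highest 0.0971). *Shh* was not tested, with 0 counts in 9 of the 10 libraries.

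Of the other receptors and coreceptors 1 was called. *Boc*, a coreceptor that presents ligand to Patched, was 26.8, 46.1, 41.3, 30.0 and 35.3 CPM in control replicates 1 to 5 and 17.9, 25.8, 22.1, 25.8 and 14.0 CPM in cKO replicates 1 to 5. The genotypes did not overlap and *Boc* fell (log2 fold change -0.77 ± 0.19 (SE), adjusted p = 0.0314), with the call kept in 6 of the 10 fits that left out 1 uterus (highest adjusted p = 0.0785). The coreceptors *Cdon* (-0.20 ± 0.16, adjusted p = 0.475) and *Gas1* (-0.23 ± 0.22, adjusted p = 0.572) did not pass the test. Neither did *Lrp2*, also of this list (-2.34 ± 0.99, adjusted p = 0.161). Its cKO values all lay below every control, as in 5.16% of all genes tested.

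Of 14 genes that carry the signal beyond Smoothened, 1 was called and 11 had a negative log2 fold change. *Arrb2*, a beta-arrestin that helps bring Smoothened to the cilium, rose from 33.9 to 39.6 CPM in controls to 39.5 to 54.5 CPM (0.40 ± 0.10, adjusted p = 0.0321), a call kept in 2 of the 10 fits that left out 1 uterus (highest adjusted p = 0.0869). *Sufu*, the main inhibitor of the GLI factors (-0.27 ± 0.10, adjusted p = 0.105), and *Kif7*, a kinesin at the tip of the cilium (-0.32 ± 0.14, adjusted p = 0.169), did not pass. Of 12 genes of the primary cilium 11 had a negative log2 fold change and 2 fell. These were *Ift140*, of the retrograde transport complex (45.6 to 49.6 CPM in controls, 29.6 to 42.5 CPM in cKO uteri, -0.36 ± 0.10, adjusted p = 0.0424), and *Arl13b*, a ciliary GTPase (-0.38 ± 0.09, adjusted p = 0.0235). Their calls were kept in 1 and 7 of the 10 fits (highest adjusted p = 0.0917 and 0.0587).

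**Figure D4:**
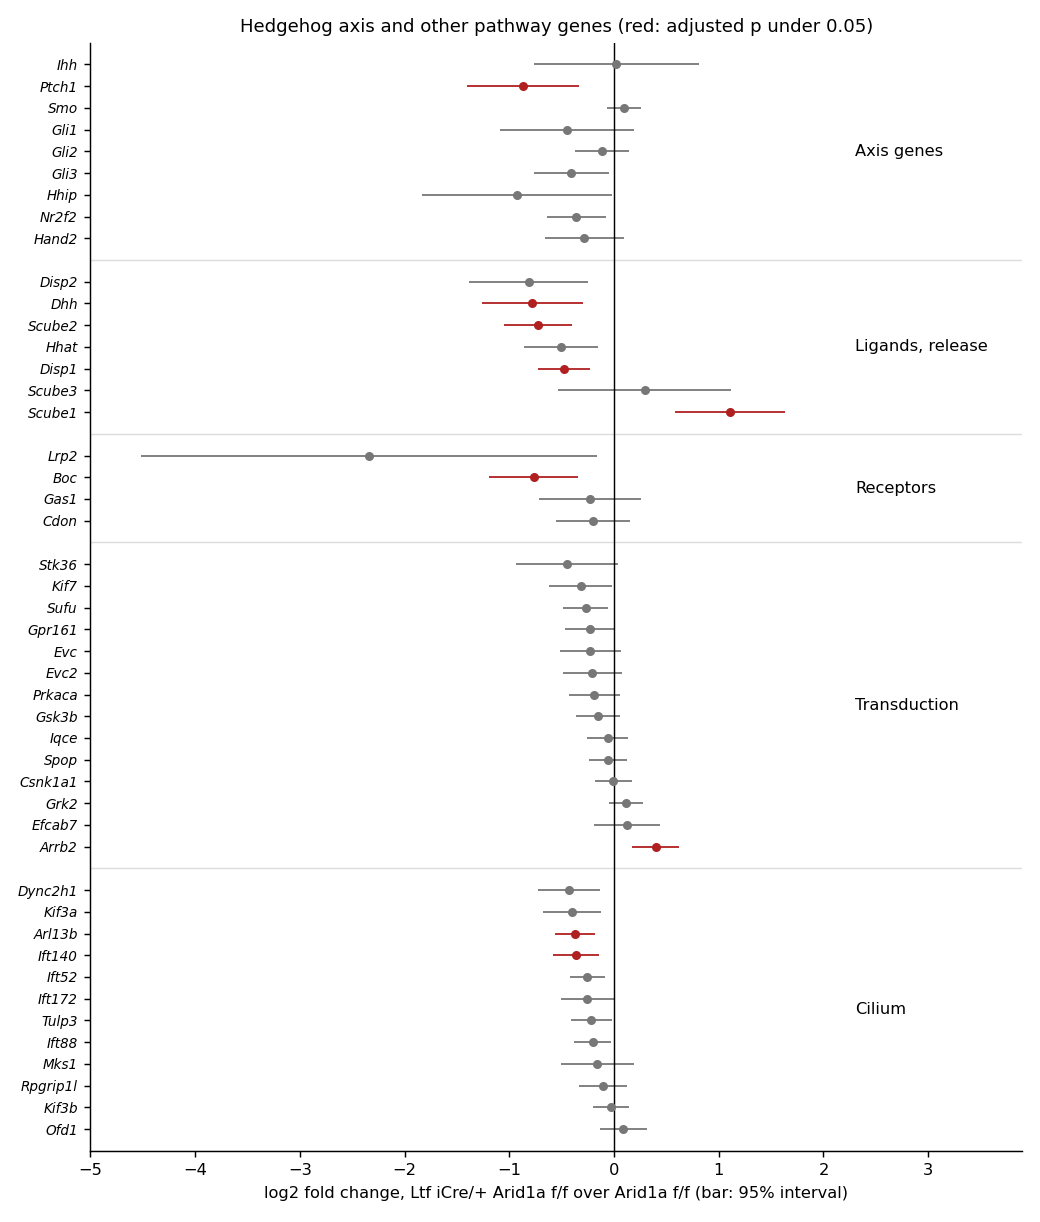
Log2 fold change of cKO over *Arid1a f/f* uteri with its 95% interval from edgeR, for the 9 axis genes and other hedgehog pathway genes grouped by role. Red marks an adjusted p under 0.05, which 9 of the genes shown reached, and most gray points lie left of 0 with intervals that include or come close to it.

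Of 10 stromal genes known as hedgehog targets in other tissues, 2 fell, against 4.51% of all genes tested. A negative log2 fold change was found in 6 and a positive one in 4. *Foxf1*, a forkhead factor of mesenchyme, was 9.26, 11.1, 9.35, 8.49 and 6.89 CPM in control replicates 1 to 5 and 2.57, 4.71, 4.90, 3.79 and 2.81 CPM in cKO replicates 1 to 5. All cKO uteri were below all controls, including replicates 2, 3 and 4 in which *Ihh* was high in CPM. The call held without any 1 of the 10 uteri (log2 fold change -1.26 ± 0.22 (SE), adjusted p = 0.00589, highest without 1 uterus 0.0202). *Bmp4*, a growth factor of the stroma, fell from 15.0 to 22.8 CPM in controls to 10.3 to 15.4 CPM (-0.62 ± 0.17, adjusted p = 0.0384), a call kept in 4 of the 10 fits (highest adjusted p = 0.0868).

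Upstream of *Ihh*, the progesterone receptor gene *Pgr* was 239 to 392 CPM in controls and 251 to 417 CPM in cKO uteri (0.11 ± 0.16, adjusted p = 0.722). The epithelial transcription factor *Sox17*, which acts with progesterone receptor on the *Ihh* gene, was 214, 213, 171, 204 and 181 CPM in control replicates 1 to 5 and 82.2, 253, 201, 251 and 58.4 CPM in cKO replicates 1 to 5. Replicates 1 and 5 were thus low for *Sox17* as they were for *Ihh* (log2 fold change -0.22 ± 0.35, adjusted p = 0.754). *Gata2*, another regulator in this chain, was 214 to 333 CPM in controls and 162, 333, 255, 288 and 131 CPM in cKO replicates 1 to 5 (-0.24 ± 0.23, adjusted p = 0.565). The epidermal growth factor receptor gene *Egfr* was 141 to 173 CPM and 67.8 to 161 CPM (-0.52 ± 0.21, adjusted p = 0.147). Of the 7 genes of this list 2 fell, against 4.51% of all genes tested. These were the gland regulator *Foxa2* (10.6 to 13.8 CPM in controls, 4.48 to 8.58 CPM in cKO uteri, -1.13 ± 0.19, adjusted p = 0.00570) and *Nr2f1*, a relative of *Nr2f2* (-0.79 ± 0.22, adjusted p = 0.0427). Whether either of them acts on *Ihh* was not tested. *Foxa2* kept its call without any 1 uterus and *Nr2f1* in 1 of 10 such fits (highest adjusted p = 0.0997).

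Progesterone-regulated genes of the luminal epithelium were read beside *Ihh*, which belongs to the same program. *Areg*, an epidermal growth factor family ligand, fell from 7.07 to 10.6 CPM in controls to 0.0470, 0.608, 0.490, 0.596 and 0.145 CPM in cKO replicates 1 to 5 (-4.49 ± 0.54, adjusted p = 0.00131), a call kept without any 1 uterus. The lowest of these rests on 3 counts, and the fold depends on such low values. *Calca*, which encodes calcitonin, fell from 4.23 to 8.01 CPM to 0.0941 to 2.29 CPM (-2.39 ± 0.66, adjusted p = 0.0427, kept in 3 of 10 fits). Of the 7 genes in this list these 2 were called, and the others did not share one pattern. A further pair is named here after its values were seen. *Il13ra2*, an interleukin receptor gene, was 31.2 to 60.2 CPM in controls and 4.11, 58.7, 72.7, 57.9 and 4.21 CPM in cKO replicates 1 to 5, lowest in replicates 1 and 5 as *Ihh* was (-0.14 ± 0.69, adjusted p = 0.929). *Cyp26a1*, a retinoic acid hydroxylase gene, was 0.797 to 2.50 CPM in controls and 2.04, 13.3, 4.94, 15.5 and 1.22 CPM in cKO replicates 1 to 5 (2.18 ± 0.65, adjusted p = 0.0567), and DESeq2 called it higher (adjusted p = 0.00259).

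Downstream in the stroma, 11 genes linked to *Nr2f2*, *Hand2* or decidualization were tested. By the edgeR test 3 rose and 0 fell, against 5.19% and 4.51% of all genes tested. Of the 11, 6 had a negative and 5 a positive log2 fold change. *Wnt4*, a decidual ligand that the epithelium can also make, was 9.29, 5.32, 8.29, 6.06 and 4.21 CPM in control replicates 1 to 5 and 29.7, 16.5, 9.30, 13.6 and 84.6 CPM in cKO replicates 1 to 5, highest in replicates 5 and 1 (2.21 ± 0.55, adjusted p = 0.0288). Its log2 fold change ranged from 1.38 to 2.44 without 1 uterus, and its call was kept in 6 of those 10 fits (highest adjusted p = 0.0775). *Fgf9*, an epithelial mitogen, was low but rose from 0.739 to 2.10 CPM in controls to 2.39 to 5.74 CPM (1.37 ± 0.33, adjusted p = 0.0255, kept in 6 of 10 fits). The other fibroblast growth factors of the list went different ways and were not called by edgeR. These were *Fgf1* (-0.86 ± 0.29, adjusted p = 0.0859), *Fgf2* (0.25 ± 0.22, 0.534) and *Fgf18* (1.06 ± 0.40, 0.116). DESeq2 called *Fgf1* lower (adjusted p = 0.0288) and *Fgf18* higher (adjusted p = 0.0404). *Il15*, the cytokine that uterine natural killer cells need, rose from 6.86 to 12 CPM to 10.4 to 15.6 CPM (0.67 ± 0.18, adjusted p = 0.0374, kept in 2 of 10 fits). *Bmp2*, which drives decidualization, was 7.48 to 12.6 CPM and 7.20 to 14.2 CPM (-0.04 ± 0.21, adjusted p = 0.931), and *Hoxa10*, a stromal homeobox gene, was 470 to 541 CPM and 212, 454, 470, 492 and 316 CPM in cKO replicates 1 to 5 (-0.39 ± 0.20, adjusted p = 0.247).

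Cell type markers were read in the same libraries. The summed CPM of 6 epithelial markers was 618 to 809.6 in controls and 1939, 1048, 895, 1116 and 1341 in cKO replicates 1 to 5, and 5 of the 6 markers rose (all but *Krt18*). The 7 stromal markers summed to 11969 to 17861 CPM and 10084 to 17164 CPM. *Dcn* and *Vim* were lower among cKO mice by the test, and *Col1a1* and *Col6a3* had positive log2 fold changes. *Pdgfra* was not called (-0.70 ± 0.23, adjusted p = 0.0735), but every cKO uterus was below every control, as in 5.16% of all genes tested. The 5 endothelial markers summed to 649 to 906 CPM in controls and 332 to 440.1 CPM in cKO uteri, and 4 of the 5 fell (all but *Vwf*). The 6 gland markers summed to 76.0 to 122 CPM and 13.2 to 50.3 CPM, with *Foxa2* called and *Prss28* and *Prss29* at or near 0 in most libraries of both genotypes. Exact permutation tests of the summed levels gave p = 0.00794 for epithelium, gland and endothelium (0.0212 adjusted over 8 lists) and p = 0.460 for stroma, 0.111 for myometrium, 0.175 for macrophage, 0.341 for neutrophil and 0.0238 for embryo markers (0.0476 adjusted). Myometrial sums were 5262 to 9694 CPM and 2747 to 7667 CPM with 0 of 6 markers called, and macrophage sums 121 to 219.5 CPM and 165 to 441 CPM with 0 of 5 called. Neutrophil sums were 1.76 to 15.0 CPM in controls, 6.77 to 13.7 CPM in cKO replicates 1 to 4 and 765 CPM in replicate 5, and 1 of 5 markers, *Ly6g*, rose. *Ly6g* was 0.0574 to 0.196 CPM in controls and 1.71, 0.372, 0.163, 0.247 and 5.32 CPM in cKO replicates 1 to 5, from 4 to 368 counts. Embryo markers were at or near 0 everywhere, with sums of at most 0.418 CPM. Of the called markers, *Epcam* kept its call in 3 of the 10 fits without 1 uterus (highest adjusted p = 0.0917), *Krt19*, *Kdr* and *Ly6g* in 6 each (0.0737, 0.0551 and 0.0761) and *Krt8* in 7 (0.0618), and the others in all 10. The part that these shifts have in the levels of the axis genes was not tested.

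**Figure D5:**
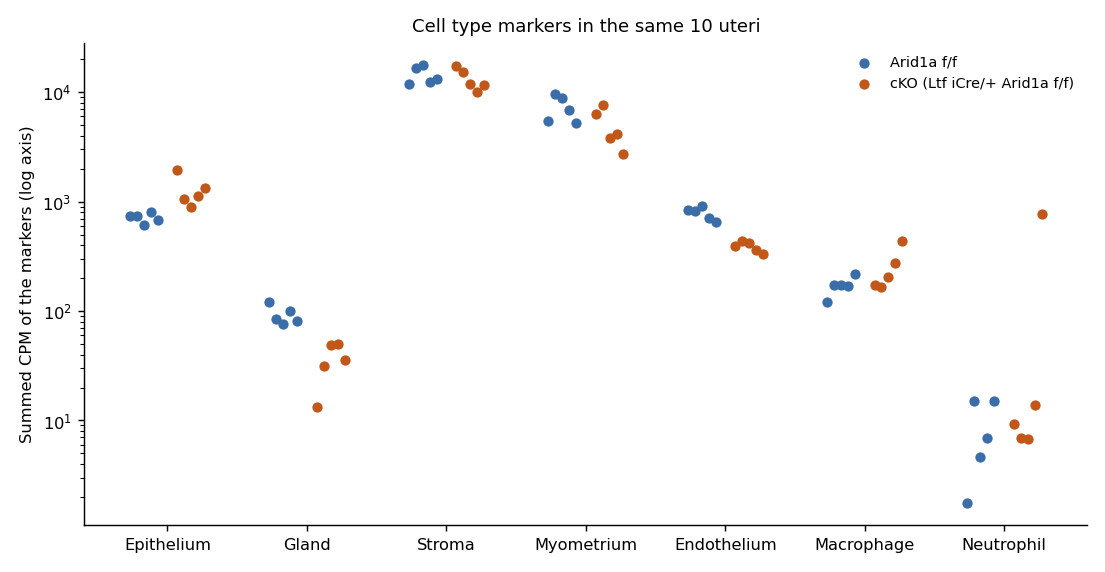
Summed CPM of the markers of 7 cell types in each of the 10 uteri, on a log axis, blue for *Arid1a f/f* and orange for cKO mice. Epithelial sums lie higher, and gland and endothelial sums lower, in every orange point than in every blue point, and 1 orange point, replicate 5, stands at 765 CPM for neutrophil markers.

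Set against the epithelial markers of the same library, *Ihh* was 5.43, 4.87, 5.44, 5.35 and 4.90 counts per 100 marker counts in control replicates 1 to 5. In cKO replicates 1 to 5 it was 0.771, 5.00, 5.39, 5.24 and 1.12 counts per 100 marker counts. On this scale replicates 2, 3 and 4 lay within the narrow control range, and replicates 1 and 5 far below it (log2 fold change -0.57, adjusted p = 0.263). *Ptch1* per 100 stromal marker counts was 2.93, 1.66, 1.69, 2.73 and 2.55 in control replicates 1 to 5 and 0.470, 1.19, 2.04, 2.32 and 1.21 in cKO replicates 1 to 5. The genotypes then overlapped, and the *Ptch1* call was lost (log2 fold change -0.68, adjusted p = 0.283). Most of the stromal sum came from 2 collagens that were not called. These were *Col3a1* (4732 to 8124 CPM in controls) and *Col1a1* (2772 to 4786 CPM in controls), so this scale largely follows them. With library sizes set to the stromal markers 1.17% of all genes were called lower and 0 of the 9 members, and with library sizes set to the epithelial markers 43.3% of all genes were called lower and 8 of the 9 members (all but *Ihh*). The median log2 fold change of all genes moved by -0.74 with the epithelial scaling and by 0.14 with the stromal one.

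The genes most like each member over the 10 uteri were named by the Pearson correlation of log2 CPM among 14591 genes with a mean of at least 100 counts. These uteri share genotype and library differences, so the values are a description. *Ihh* was most like *Slc13a5*, a citrate transporter (r = 0.98), *Col9a2* (0.98) and *Lrrc31* (0.98). *Slc13a5* showed the same split more steeply, at 7.43 to 29.9 CPM in controls and 0.282, 89.7, 77.7, 68.6 and 0.203 CPM in cKO replicates 1 to 5. *Gli1* was like *Rad52* (0.98) and *Gm15478* (0.97), and *Ptch1* most like *Rnf150*, *Cul9* (0.99 each) and *Tbc1d32* (0.98). *Gli3* went with *Adamtsl4*, *Wdr13* and *Lef1* (0.98 each), of which *Lef1*, a Wnt pathway transcription factor, was 51.2 to 70.0 CPM in controls and 5.97 to 37.9 CPM in cKO uteri (adjusted p = 0.0833). *Nr2f2* went with *Zfyve9*, *Zhx3* and *Chst2* (0.99 each) and *Hand2* with *Hip1r* (0.99), *2700046A07Rik* (0.98) and *Slc6a2*, the noradrenaline transporter (0.96). *Smo*, *Gli2* and *Hhip* had weaker nearest genes, at most 0.94 (*Nkain3*), 0.96 (*Pdlim5*) and 0.95 (*Crp*).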

How the data were processed

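Uterine RNA of 5 *Arid1a f/f* control and 5 *Ltf iCre/+ Arid1a f/f* (cKO) mice was made into mRNA libraries and read from both ends over 50 bp. Reads were trimmed by the authors with cutadapt 1.18 and Trim Galore 0.6.4, checked with FastQC 0.11.9, aligned to GRCm38 with STAR 2.7.3a and deposited as whole-number counts per gene, without normalization (versions as in the submitters' processing notes). The annotation release and the strand setting are not given in the sources used here. Counts per library were 59296537 to 72702411, and 45143 of 45706 identifiers were found in the GENCODE M21 annotation of GRCm38, which supplied symbols, coordinates and exon lengths.

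The 25146 genes that averaged 1 count or more per library were tested in R 4.3.3 with edgeR 4.0.16 (TMM, quasi-likelihood test on genotype alone, threshold 0.05 after Benjamini-Hochberg adjustment), and all p-values were adjusted over all genes tested. Adjusted p-values, SEs and intervals in the report are from that fit unless DESeq2 1.42.0 or a permutation test is named. Exact permutation tests were two-sided, on log2 CPM (prior count 2). Alternatives were DESeq2 and its size factors, other filters, the replicate number as a block, scaling to marker sums and the omission of each uterus. The procedures were tested on simulated counts. No pair of libraries was a duplicate (chi-square of at least 36.1 per gene).

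The members and gene lists were chosen with earlier results of these data known. All 9 members were described. Of the other lists, called genes (at most 4 per list, by p) and a fixed set of 18 pathway genes were named with values. *Lrp2*, *Il13ra2*, *Cyp26a1*, *Fgf1*, *Fgf2*, *Fgf18*, *Pdgfra* and *Col3a1* were named after their values were seen. Genes most like a member were the 3 of highest Pearson r. One gene of these sets, which counts in the list totals, is not reported here. Gene roles are general background. Promoter sequences are from RefSeq.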

Additional observations from a re-analysis of the deposited data

Results flagged for a closer look

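No axis gene had a library far from the others of its genotype by Dixon's test at 95%, which was run on 34 groups of 5 uteri and by chance flags about 1 group in 20. A pair of marker sums did. The summed neutrophil markers were 765 CPM in cKO replicate 5, with the gap to the next uterus taking up nearly the whole range of the group. This replicate was among the 2 lowest cKO uteri for 7 of the 9 axis genes. So was cKO replicate 1, whose neutrophil sum of 9.38 CPM lay within the control range. The summed embryo markers were 0.418 CPM in control replicate 2, and no single embryo marker had more than 11 counts in any library.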

How the results depend on the processing

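For each of the 9 members 17 alternatives were run. Together, 127 of these member values kept their direction and their side of the threshold, 9 changed sign (*Smo* with epithelial scaling also gained a call), 9 lost and 8 others gained a call. *Ptch1* kept its negative direction in all 17, and its call was lost with the replicate block (-0.96, adjusted p = 0.0674), with scaling to stromal markers (-0.68) and in 7 of the 10 fits that left out 1 uterus (-1.01 to -0.69). *Ihh* turned negative with the replicate block (-0.20), with scaling to epithelial markers (-0.57) and in 5 fits that left out 1 uterus (-0.19 to 0.22 over all 10).

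Scaling to epithelial markers turned *Smo* (-0.65) and put it, *Gli1* (-1.06), *Gli2* (-0.88), *Gli3* (-1.08), *Hhip* (-1.54), *Nr2f2* (-1.05) and *Hand2* (-0.95) past the threshold, and scaling to stromal markers turned *Gli2* (0.012). *Nr2f2* also passed with DESeq2 (-0.36) and in 1 fit that left out 1 uterus (-0.45 to -0.28). Members called lower numbered 2 with DESeq2, 0 with the replicate block, 8 with epithelial and 0 with stromal scaling, and 0 to 1 without 1 uterus. Genes called numbered 2438 as reported, 4103 with DESeq2, 11394 with epithelial and 1098 with stromal scaling, and 1204 to 2381 without 1 uterus. Summed myometrial markers passed when cKO replicate 2 was left out, and embryo markers no longer did when control replicate 2 was. The replicate numbers did not pair the uteri (correlations of same-numbered deviations -0.05 to 0.13, 1 of 5 over 0.1), and the block called 1704 genes. The cause of each change was not tested. Depth limits the low cKO values of *Areg* and *Calca*, which rest on as few as 3 and 6 counts in a library, and less so *Fgf9*, *Dhh* and *Hhip* (at least 53).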
